A study of Mus musculus with 20 samples.

Results

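Mitosis genes encode the kinases, cyclins, motors, kinetochore proteins and chromosome proteins that a cell uses to divide its copied chromosomes. A fixed list of 48 such genes was followed by symbol through the count tables of 2 mouse tissues, bone marrow and kidney, and all 48 were found among the 55486 genes listed. The list names genes by known function and uses no measured value, but it was drawn up with earlier results of these data known. It was divided by role into 10 genes of mitotic entry, 5 of chromosome separation, 4 of the chromosomal passenger complex, 10 of the kinetochore and its checkpoint, 8 of the spindle, 5 of cytokinesis and 6 of chromosome structure.

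Cells enter mitosis when cyclin-dependent kinase 1, bound to B-type cyclins, is switched on by Cdc25 phosphatases, with Polo-like and Aurora kinases acting beside it. The spindle checkpoint holds the anaphase-promoting complex back until every chromosome is attached, after which securin and cyclin B are destroyed, separase opens cohesin and the cell is cleaved. Most genes of this program are transcribed late in the cell cycle, in G2 and M phase, so their RNA is abundant in tissues with many dividing cells, such as the erythroid, lymphoid and granulocyte precursors of bone marrow. Few cells divide in an adult kidney.

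The mice were C57BL/6 of both sexes, 10 weeks old at the start, and were given either 5% dextrose, the vehicle, or oxaliplatin at 10 mg/kg in 5% dextrose by intraperitoneal injection for 8 weeks. Oxaliplatin is a platinum drug that forms adducts on DNA. Each of the 4 groups, bone marrow and kidney with vehicle and with oxaliplatin, held 5 libraries, 20 in all, labelled as biological replicates, and marrow of the hind leg bones was collected 6 days past the final injection. The labels give no sex for a library and do not say whether marrow and kidney came from the same mice, and RNA was extracted by a different procedure in each tissue. The summed level of 4 Y-linked genes was 99.1 to 173 CPM in the marrow libraries and 77.5 to 110 CPM in the kidney libraries. No library thus lacked Y-linked RNA, and the Y-linked covariate used below follows its level and does not split the libraries by sex. Mouse numbers below are the replicate numbers of the labels, and the same number in marrow and kidney need not be the same animal. Total counts per library ranged from 30660153 to 41140527 in bone marrow and from 24393007 to 30925430 in kidney. Levels below are CPM, counts relative to a library size scaled by TMM within a tissue, and a group value is the mean ± SD over 5 libraries. A change is log2FC, the log2 fold change of oxaliplatin over vehicle with its standard error (SE), from edgeR's two-sided quasi-likelihood test, and FDR is its Benjamini-Hochberg adjusted p over all genes tested. A gene was called when FDR was under 0.05 and the fold change was beyond 1.5. Markers matched the tissue labels: the summed level of 9 tubule and podocyte genes lay between 16433 and 20379 CPM in the kidney libraries and between 2.88 and 14.6 CPM in the marrow libraries.

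Many mitosis genes are known to share a promoter element, the cell cycle genes homology region (CHR), which is bound by complexes built on the MuvB core, and many also carry a CCAAT box, which is bound by NF-Y. RefSeq promoters on GRCm38.p6, reaching from 250 bases before to 50 bases after the transcription start, were at hand for 40 of the 48 genes, 42 promoters in all. A CHR, searched as TTTGAA or TTCGAA on both strands, was present in 33 of the 42 promoters (78.6%), against 19.2% of 32851 mouse promoters and 14.9% of the 16366 promoters whose genes were tested in marrow. Within 50 bases of the start the shares were 73.8%, 5.31% and 3.81%. CCAAT was found in 73.8% of the member promoters and 37.4% of all promoters, and CHR and CCAAT together in 66.7% and 7.52%. Among promoters of genes tested in marrow these shares were 37.1% and 6.01%. An E2F site was searched on both strands in 4 forms. The first pair of forms was TTCCCGC and its variant TTCGCGC. The second pair was TTGCCGC and its variant TTGGCGC. At least 1 form was found in 23.8% of the member promoters, 9.57% of all promoters and 14.8% of those whose genes were tested in marrow. These are matches of letters, and no binding was measured. The windows printed here run from 100 bases before to 30 bases from the start, 5′ to 3′ on the gene's strand, with CHR and CCAAT matches in capitals on whichever strand they were found. Anln, Kif18b and Cenpf are shown as the members with a CHR match and the smallest p in marrow, Cdk1 and Top2a as a kinase and a chromosome gene that were called in opposite directions in the 2 tissues, and Ccnb1, Cdc20 and Pttg1 as members that were not called in marrow. The last 5 were picked after their values had been seen.
Anln, chr9:22389177-22389306, minus strand: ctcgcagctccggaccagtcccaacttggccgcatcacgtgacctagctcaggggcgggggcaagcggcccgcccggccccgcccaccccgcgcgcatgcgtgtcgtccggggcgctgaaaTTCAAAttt
Kif18b, chr11:102925095-102925224, minus strand: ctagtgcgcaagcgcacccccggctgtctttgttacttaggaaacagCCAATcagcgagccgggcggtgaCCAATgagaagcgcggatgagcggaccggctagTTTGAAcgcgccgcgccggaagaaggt
Cenpf, chr1:189688057-189688186, minus strand: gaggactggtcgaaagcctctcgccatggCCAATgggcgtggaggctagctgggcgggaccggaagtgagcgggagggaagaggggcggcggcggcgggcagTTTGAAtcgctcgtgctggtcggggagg
Cdk1, chr10:69352883-69353012, minus strand: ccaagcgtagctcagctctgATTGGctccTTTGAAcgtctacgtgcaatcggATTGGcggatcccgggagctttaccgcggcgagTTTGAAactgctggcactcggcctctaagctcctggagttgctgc
Top2a, chr11:99024160-99024289, minus strand: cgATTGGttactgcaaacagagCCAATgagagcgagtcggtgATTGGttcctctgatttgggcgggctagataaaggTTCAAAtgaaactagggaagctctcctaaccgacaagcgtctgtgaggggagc
Ccnb1, chr13:100786457-100786586, minus strand: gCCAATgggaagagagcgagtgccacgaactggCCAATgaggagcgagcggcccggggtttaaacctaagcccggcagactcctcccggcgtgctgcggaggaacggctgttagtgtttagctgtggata
Cdc20, chr4:118437314-118437443, minus strand: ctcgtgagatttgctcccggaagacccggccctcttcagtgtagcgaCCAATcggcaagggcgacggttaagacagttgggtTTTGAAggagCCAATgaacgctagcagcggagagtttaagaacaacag
Pttg1, chr11:43425952-43426081, minus strand: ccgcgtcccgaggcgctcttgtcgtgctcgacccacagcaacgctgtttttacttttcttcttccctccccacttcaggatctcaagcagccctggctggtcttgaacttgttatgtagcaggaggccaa

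In this set, the Cdk1 window held 2 CHR and 2 CCAAT matches and the Top2a window 1 CHR and 3 CCAAT matches. Cdc20, which was not called in marrow, also held 1 CHR and 2 CCAAT matches. Ccnb1 held 2 CCAAT matches and no CHR in these letters, and Pttg1 held neither. Of the 40 genes with a promoter, 9 had no CHR match in the whole 300 bases (Ccnb1, Nek2, Pttg1, Birc5, Mad2l1, Cenpe, Nuf2, Nusap1 and Ncaph), and 5 of these, Pttg1, Birc5, Mad2l1, Nuf2 and Nusap1, had none of the 3 motifs.

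**Figure D1:**
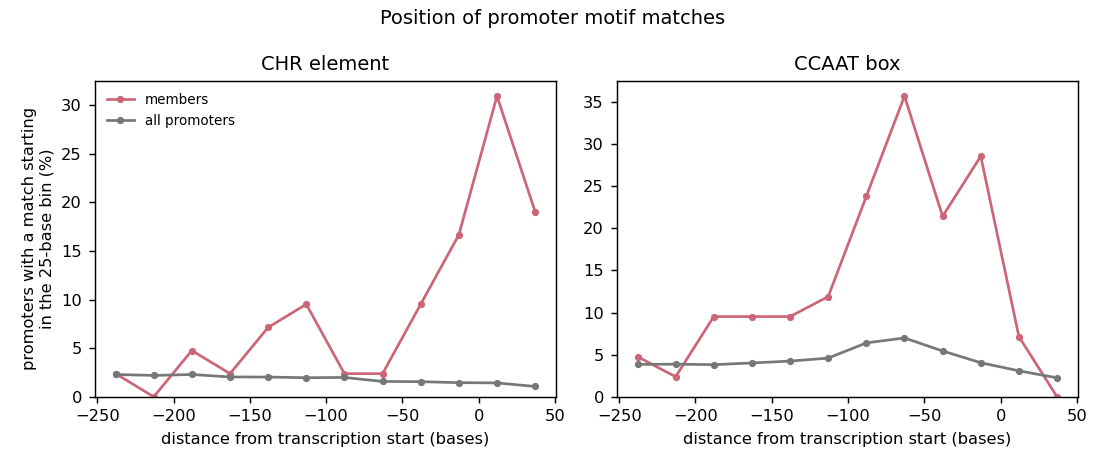
Percent of promoters (y axis) with a CHR match (left) or a CCAAT match (right) whose first base lies in each 25-base bin, against the distance from the transcription start in bases (x axis), for the 42 promoters of mitosis genes and for all 32851 promoters. CHR matches of the members peaked at the start, with 30.95% of promoters in the highest bin, and CCAAT matches upstream of it, with 35.71%, while all promoters reached at most 6.99% in any bin.

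In bone marrow every one of the 48 genes was lower after oxaliplatin. All 48 passed the filter on low counts, all 48 log2FC were below 0, against 52.9% of all genes tested, and the median was -0.89, against -0.04 for all genes. At the thresholds 43 were called lower and 0 higher. Among all 22363 genes tested in marrow, 11.8% were called lower and 11.6% higher. In 38 of the 48 every oxaliplatin library lay below every vehicle library, which was true of 13.5% of all genes, and 17 fell more than 2-fold, against 7.24%. The called genes were left at 34.7% (Mki67) to 66.2% (Cdca8) of their vehicle mean.

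In kidney the same list moved the other way, from a much lower level. Counts were small, with a median of 25 counts per gene and library with vehicle and 55.5 with oxaliplatin, against 4551 and 2717.5 in marrow. Of the 48 genes, 43 passed the filter on low counts, 26 of these were called higher and 0 lower, and 7.68% of the 19293 genes tested in kidney were called higher. The filter matters here: 13 of the 43 reached its level, 0.372 CPM, in all 5 oxaliplatin libraries but not in all 5 vehicle libraries, and 8 of the 26 calls were among them (Ube2c, Aurkb, Birc5, Kif18b, Kif2c, Tpx2, Hmmr and Prc1). These 8 entered the test through the group in which they were high, so their kidney values below are a description. Of the other 30 genes, which reached it in all 5 vehicle libraries, 18 were called higher with a median log2FC of 0.75 over the 30, against 0.02 for all genes. Tested with no filter beyond 1 count, 29 of all 48 were called higher and 0 lower, against 4.45% of 37270 genes. That share takes in the genes with too few counts for the filter. It stands for 1659 higher calls, against 1481 among the 19293 genes that passed the filter. Every oxaliplatin library lay above every vehicle library in 17 members, 13 of them among the 30, against 9.69% of the genes tested. A rise beyond 2-fold was called for 17, of which 10 were among the 30, against 3.4%. Oxaliplatin libraries 2 and 4 had the highest summed levels of the list and also the highest hemoglobin levels of their group, and without both, 19 of 43 were called higher and 0 lower. The part of blood in the rise was not tested.

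The difference between the tissues was tested directly, as the marrow change minus the kidney change in a fit of all 20 libraries. It was below 0 for all 48 genes and was called for 43 of them, against 10.8% of 24321 genes called in that direction. The 43 include Ccnb1, Cdc25c, Bub1, Ttk and Nuf2, which had too few counts for the kidney filter, and the 8 named above. Of 31 members with at least 10 counts in every library 30 were called, against 2262 of 14473 genes called in that direction. Lower calls in marrow and higher calls in kidney fell on the same gene for 24 members, which is 50% of the 48 and includes the 8 named above, against 1.08% of the 17507 genes tested in both tissues. The 5 genes whose difference was not called were Nek2, Pttg1, Cdca5, Spc25 and Smc4, and 4 of them, all but Cdca5, were among the 5 members with a kidney log2FC below 0. In bulk RNA, fewer dividing cells and less of these RNAs in each dividing cell cannot be told apart, and the same holds for a rise.

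**Figure D2:**
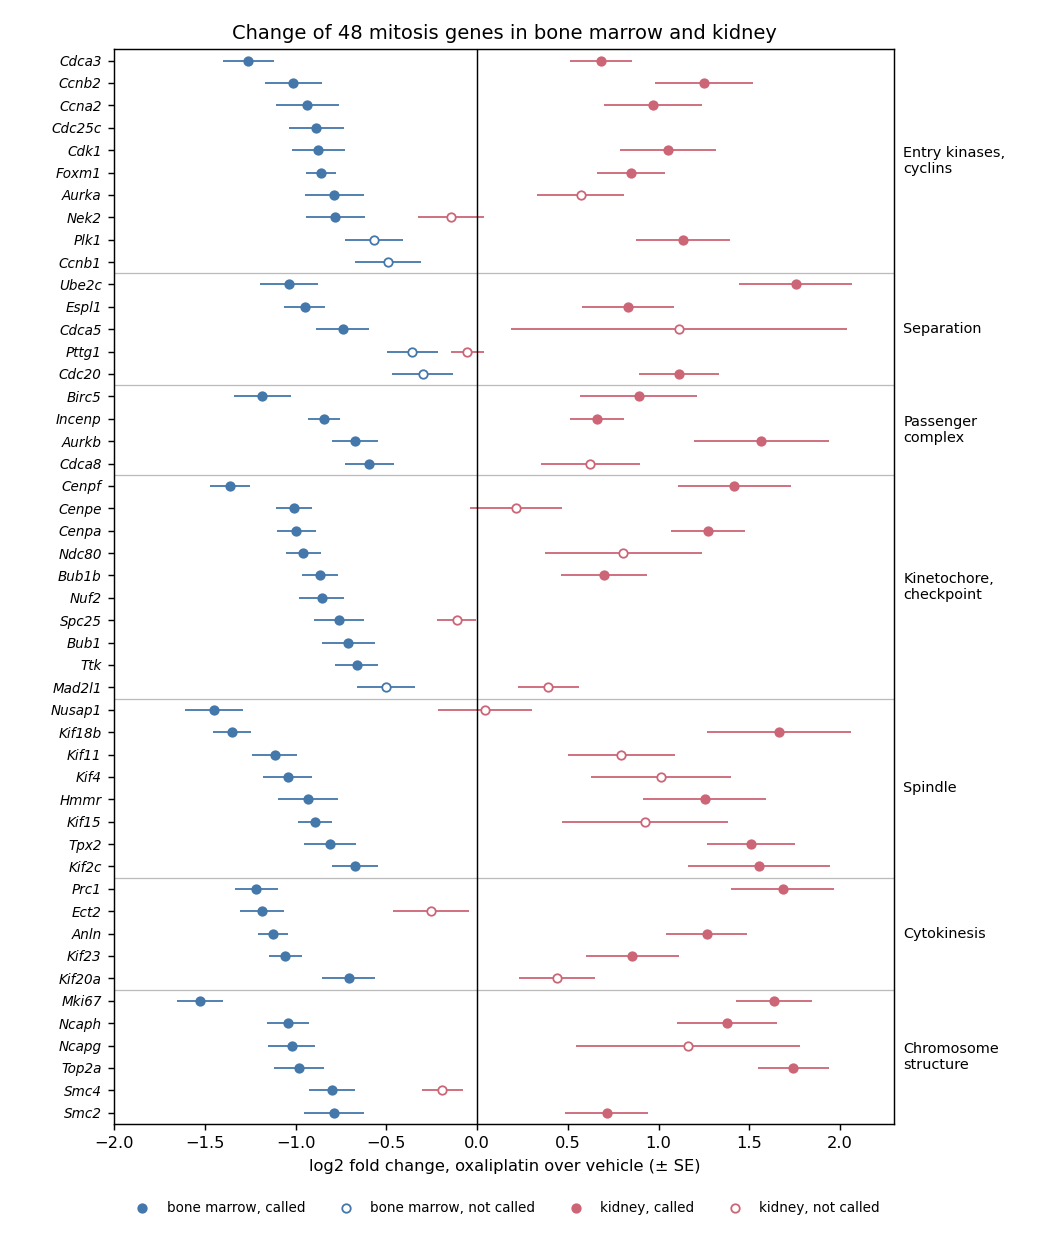
log2 fold change of oxaliplatin over vehicle ± SE (x axis) for each of the 48 genes (y axis, grouped by role and ordered by the marrow change) in bone marrow (blue) and kidney (red), with filled points for called genes and open points for genes not called. All 48 marrow values lie left of 0, 38 of the 43 kidney values lie right of it, and Ccnb1, Cdc25c, Bub1, Ttk and Nuf2 have no kidney point because they had too few counts.

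Among the genes of mitotic entry, 8 of 10 were called lower in marrow, with a median log2FC of -0.87 over the 10. Cdk1 (ENSMUSG00000019942, chr10:69335146-69352938), the kinase that starts mitosis, stood at 128, 141, 132, 160 and 106 CPM in vehicle marrow and at 61.0, 72.2, 99.8, 67.8 and 62.5 CPM in oxaliplatin marrow. The groups did not overlap, although the highest oxaliplatin library, mouse 3, came close to the lowest vehicle library, mouse 5 (log2FC -0.88 ± 0.15 SE, FDR = 4.60e-04). In kidney Cdk1 read 0.635, 1.22, 0.821, 0.684 and 0.526 CPM with vehicle and 1.51, 2.02, 1.22, 1.75 and 1.59 CPM with oxaliplatin, and the groups met at 1.22 CPM without overlapping (log2FC 1.05 ± 0.27 SE, FDR = 0.00641).

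Ccnb1 (ENSMUSG00000041431, chr13:100778650-100786570), the cyclin B1 that partners Cdk1, did not pass the test in marrow. Its vehicle values were 107, 119, 117, 128 and 89.7 CPM and its oxaliplatin values 57.0, 79.8, 124, 72.5 and 65.3 CPM, so that oxaliplatin mouse 3 lay inside the vehicle range while the other 4 lay below it (log2FC -0.49 ± 0.18 SE, FDR = 0.0551). Without that library Ccnb1 was called (log2FC -0.71, FDR = 2.96e-04). Ccnb2, the other B-type cyclin of the list, fell from 167 ± 23.5 to 82.9 ± 20.2 CPM. In kidney Ccnb1 had 10, 8, 0, 2 and 6 counts with vehicle and 8, 20, 34, 16 and 18 counts with oxaliplatin, too few for the filter.

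Foxm1 (ENSMUSG00000001517, chr6:128362967-128376146), the transcription factor that switches on much of the G2 and M program, had the smallest spread of this role within each marrow group relative to its mean. It measured 138, 135, 144, 146 and 131 CPM in vehicle marrow and 66.9, 75.6, 82.3, 74.3 and 82.6 CPM in oxaliplatin marrow (log2FC -0.86 ± 0.08 SE, FDR = 5.92e-06). In kidney it was 1.75, 1.41, 1.94, 1.25 and 1.26 CPM with vehicle and 2.55, 3.10, 2.66, 2.67 and 2.73 CPM with oxaliplatin (log2FC 0.85 ± 0.19 SE, FDR = 0.00266). Neither tissue showed overlap between its groups.

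Cdca3, whose product helps to degrade the Wee1 kinase at mitotic entry, had the largest fall of the entry genes. It went from 225, 200, 200, 237 and 163 CPM with vehicle to 69.9, 86.2, 115, 80.7 and 76.1 CPM with oxaliplatin in marrow (log2FC -1.26 ± 0.14 SE, FDR = 2.01e-05) and rose in kidney from 1.99 ± 0.272 to 3.19 ± 0.400 CPM (log2FC 0.68 ± 0.17 SE). Plk1, the Polo-like kinase, fell short of the 1.5-fold threshold in marrow (log2FC -0.57 ± 0.16 SE, FDR = 0.0143) and rose in kidney (log2FC 1.13 ± 0.26 SE, FDR = 0.00355). Nek2, a centrosome kinase, fell in marrow (log2FC -0.78 ± 0.16 SE) and gave 3.80 ± 0.805 and 3.43 ± 0.716 CPM in kidney. Cdc25c, the phosphatase that activates Cdk1, had 0, 0, 2, 0 and 0 counts in vehicle kidney and 10, 14, 8, 2 and 12 counts in oxaliplatin kidney. Its oxaliplatin counts exceeded the highest vehicle count in 4 of 5 libraries and equalled it in mouse 4, and in CPM the groups overlapped.

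**Figure D3:**
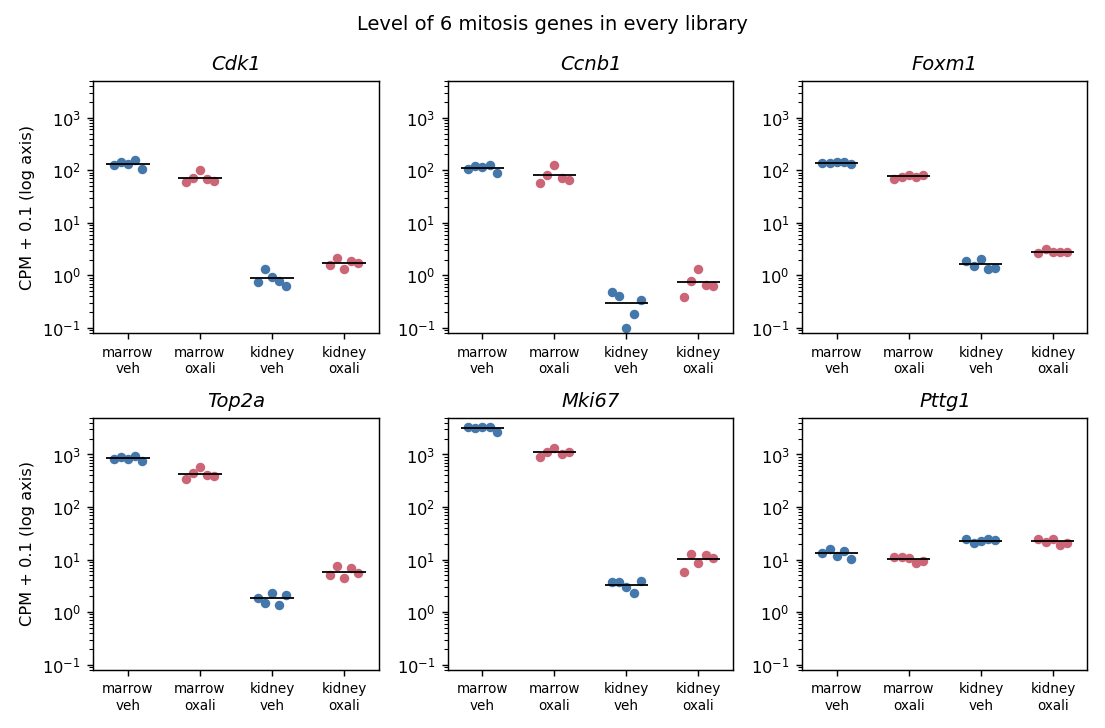
CPM + 0.1 on a log axis (y axis) in every library of the 4 groups (x axis) for 6 genes, with vehicle in blue, oxaliplatin in red, points in mouse order 1 to 5 from left to right and a line at the group mean. Cdk1, Ccnb1, Foxm1, Top2a and Mki67 stand far higher in marrow than in kidney and lie closer together after oxaliplatin, while Pttg1 lies between 8.52 and 25.02 CPM in all 4 groups.

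Of the 5 genes of chromosome separation 3 were called lower in marrow. Ube2c, the ubiquitin-conjugating enzyme of the anaphase-promoting complex, fell in marrow from 210, 229, 229, 241 and 175 CPM to 84.3, 104, 155, 93.7 and 90.0 CPM (log2FC -1.04 ± 0.16 SE, FDR = 2.47e-04). In kidney its values went from 0.523, 0.457, 0.346, 0.644 and 0.648 CPM to 1.87, 2.93, 1.19, 1.79 and 1.14 CPM (log2FC 1.76 ± 0.31 SE, FDR = 4.82e-04), and 4 of the 5 vehicle libraries reached the level of the filter. The groups did not overlap in either tissue.

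Cdc20, the activator that directs the complex to securin and cyclin B, showed the smallest change of all 48 in marrow. Vehicle libraries read 121, 127, 122, 140 and 96.2 CPM and oxaliplatin libraries 73.0, 98.6, 146, 95.0 and 79.7 CPM, and mouse 3 of the oxaliplatin group was the highest of all 10 (log2FC -0.30 ± 0.17 SE, FDR = 0.201). In kidney the same gene rose from 1.34, 1.79, 1.81, 0.725 and 1.70 CPM to 2.98, 3.57, 2.84, 3.51 and 3.06 CPM without overlap (log2FC 1.11 ± 0.22 SE, FDR = 0.00119). The difference between the tissues was called for Cdc20 (-1.34 ± 0.29 SE, FDR = 0.00102).

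Pttg1, securin, stood apart from the list in its level as well as in its change. It was at 13.1, 15.6, 11.8, 14.3 and 10.0 CPM in vehicle marrow and at 11.2, 11.1, 10.7, 8.52 and 9.17 CPM in oxaliplatin marrow, with overlap (log2FC -0.36 ± 0.14 SE, FDR = 0.0721). In kidney it was at 22.9 ± 1.83 CPM with vehicle and 22.1 ± 2.53 CPM with oxaliplatin (log2FC -0.05 ± 0.09 SE, FDR = 0.690), and the sign of this value changed with the scaling. Espl1, separase, which securin holds inactive, fell in marrow (log2FC -0.95 ± 0.12 SE, FDR = 3.77e-05) and rose in kidney (log2FC 0.83 ± 0.25 SE, FDR = 0.0191), a call that was lost when either of 2 libraries was left out. Cdca5, sororin, which protects cohesin, fell in marrow (log2FC -0.74 ± 0.15 SE), but its kidney counts were uneven, 72, 11, 7, 8 and 7 with vehicle and 17, 22, 11, 53 and 171 with oxaliplatin, and gave no call (log2FC 1.11 ± 0.93 SE, FDR = 0.406).

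All 4 genes of the chromosomal passenger complex, which corrects faulty chromosome attachments, fell in marrow. Birc5, survivin, went from 182, 177, 176, 181 and 142 CPM to 53.1, 79.3, 106, 73.1 and 65.6 CPM (log2FC -1.18 ± 0.16 SE, FDR = 7.64e-05), and Cdca8, borealin, from 139, 138, 146, 153 and 116 CPM to 71.4, 94.8, 123, 86.2 and 82.8 CPM (log2FC -0.59 ± 0.13 SE, FDR = 0.00398). The Cdca8 groups overlapped by 1 library, oxaliplatin mouse 3, and its call rests on the fold threshold: with median ratio size factors log2FC was -0.55 and it was not called. In kidney Incenp, the scaffold of the complex, was called higher, and so were Aurkb, its kinase, and Birc5. Aurkb reached the level of the filter in 2 and Birc5 in 4 of the 5 vehicle libraries, so the kidney values of both are a description. Aurkb went from 0.441 ± 0.284 to 1.32 ± 0.361 CPM (log2FC 1.57 ± 0.37 SE, FDR = 0.00439) and Incenp from 4.30 ± 0.906 to 6.81 ± 0.638 CPM (log2FC 0.66 ± 0.15 SE, FDR = 0.00285). The Birc5 rise was close to the threshold (log2FC 0.89 ± 0.32 SE, FDR = 0.0467), and FDR was above 0.05 when any of 7 libraries was left out. Cdca8 gave 1.01 ± 0.227 and 1.57 ± 0.561 CPM (FDR = 0.0942).

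Of the 10 kinetochore and checkpoint genes 9 were called lower in marrow. Cenpf, a large outer kinetochore protein, fell most, from 344, 349, 327, 342 and 276 CPM to 109, 137, 148, 114 and 129 CPM (log2FC -1.36 ± 0.11 SE, FDR = 1.45e-06). Mad2l1, the checkpoint protein that binds Cdc20, was the exception at 70.2, 71.5, 69.5, 81.7 and 58.7 CPM with vehicle and 34.2, 46.8, 70.6, 48.8 and 47.7 CPM with oxaliplatin (log2FC -0.50 ± 0.16 SE, FDR = 0.0268), a change below 1.5-fold that was called without oxaliplatin mouse 3 (log2FC -0.66). The other checkpoint genes, Bub1, Bub1b and Ttk, fell by 0.71, 0.87 and 0.66 on the log2 scale, and Ndc80, Nuf2 and Spc25, 3 subunits of the complex that grips microtubules, fell by 0.96, 0.86 and 0.76.

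In kidney Cenpa, the histone variant that marks centromeres, rose without overlap of its groups, from 0.970, 0.991, 1.30, 1.41 and 1.21 CPM to 2.33, 3.77, 2.84, 2.42 and 2.82 CPM (log2FC 1.27 ± 0.20 SE, FDR = 2.28e-04). Cenpf and Bub1b were also called higher, with log2FC 1.42 ± 0.31 and 0.70 ± 0.24 SE, and the Bub1b call (FDR = 0.0330) was lost when any of 6 libraries was left out. Spc25 was listed at 10.6 ± 1.38 CPM with vehicle and 9.77 ± 0.554 CPM with oxaliplatin, far above its partners Ndc80, at 0.252 ± 0.172 and 0.445 ± 0.0541 CPM, and Nuf2, at 0.213 ± 0.136 and 0.413 ± 0.143 CPM. Bub1, Ttk and Nuf2 had at most 14, 12 and 16 counts in any kidney library and were not tested there.

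Spindle genes all fell in marrow, 8 of 8, with a median log2FC of -0.99. Nusap1, a microtubule bundler, went from 198, 203, 190, 231 and 161 CPM to 54.8, 76.3, 102, 64.6 and 62.5 CPM (log2FC -1.45 ± 0.16 SE, FDR = 1.62e-05). Kif2c, the motor that shortens microtubules at centromeres, had the smallest fall of the role, from 71.9, 70.7, 71.9, 72.2 and 53.7 CPM to 36.7, 41.2, 56.1, 38.2 and 41.3 CPM (log2FC -0.67 ± 0.13 SE, FDR = 0.00116), with 1 oxaliplatin library above the lowest vehicle library. Kif11, the motor that pushes the poles apart, and Kif4 and Kif15 fell by 1.12, 1.05 and 0.89 on the log2 scale. In kidney Tpx2, the activator of Aurora A on the spindle, rose from 0.747, 0.686, 0.778, 0.644 and 0.405 CPM to 1.47, 2.19, 1.98, 1.96 and 1.71 CPM (log2FC 1.51 ± 0.24 SE, FDR = 2.32e-04). Kif18b, Kif2c and Hmmr had log2FC between 1.25 and 1.66, and all 3, like Tpx2, were among the 8 called genes that passed the filter through the oxaliplatin libraries. Without oxaliplatin libraries 2 and 4, Kif2c and Hmmr were not called. Nusap1 was not, at 2.86 ± 0.964 and 2.95 ± 1.03 CPM (log2FC 0.04 ± 0.26 SE).

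All 5 cytokinesis genes fell in marrow, with a median log2FC of -1.13. Prc1, the crosslinker of the central spindle, fell from 171, 167, 172, 167 and 142 CPM to 54.9, 70.0, 89.5, 69.9 and 67.9 CPM (log2FC -1.22 ± 0.12 SE, FDR = 6.77e-06) and rose in kidney from 0.336, 0.724, 0.691, 0.805 and 0.607 CPM to 1.26, 2.29, 1.58, 2.67 and 2.37 CPM (log2FC 1.68 ± 0.28 SE, FDR = 3.27e-04). It reached the level of the filter in 4 of the 5 vehicle kidney libraries, so its kidney values are a description. Kif20a, a motor of the midzone, fell least, from 93.6, 97.7, 96.2, 110 and 75.4 CPM to 44.2, 52.2, 79.7, 55.9 and 57.5 CPM (log2FC -0.71 ± 0.15 SE, FDR = 0.00228). Anln, anillin of the cleavage furrow, had the smallest p of all 48 in marrow (log2FC -1.13 ± 0.08 SE, FDR = 8.26e-07) and rose in kidney (log2FC 1.26 ± 0.22 SE, FDR = 4.46e-04). Ect2, which activates the furrow's RhoA, fell in marrow (log2FC -1.18 ± 0.12 SE, FDR = 9.83e-06), whereas its kidney values of 2.93 ± 0.837 and 2.45 ± 0.447 CPM gave no call (log2FC -0.25 ± 0.21 SE, FDR = 0.384).

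Among the chromosome genes Mki67 (ENSMUSG00000031004, chr7:135689784-135716361), the Ki-67 antigen that coats mitotic chromosomes, had the largest fall of all 48. It was at 3259.8, 3232, 3296, 3273 and 2719 CPM in vehicle marrow and at 899, 1129.8, 1306, 1029 and 1115 CPM in oxaliplatin marrow (log2FC -1.53 ± 0.13 SE, FDR = 1.99e-06). In kidney it rose from 3.70, 3.58, 2.85, 2.21 and 3.77 CPM to 5.71, 12.9, 8.59, 12.2 and 10.7 CPM (log2FC 1.63 ± 0.21 SE, FDR = 5.19e-05). Top2a (ENSMUSG00000020914, chr11:98992943-99024189), the topoisomerase that untangles sister DNA, fell in marrow from 817, 885, 829, 933 and 746 CPM to 338, 440, 565, 400 and 387 CPM (log2FC -0.98 ± 0.14 SE, FDR = 1.09e-04). Its kidney values went from 1.79, 1.41, 2.16, 1.29 and 2.02 CPM to 4.95, 7.37, 4.31, 6.84 and 5.55 CPM, the smallest p of the members tested there (log2FC 1.74 ± 0.19 SE, FDR = 9.21e-06). Neither gene's groups overlapped in either tissue.

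The condensin genes Ncapg, Ncaph, Smc2 and Smc4, which compact chromosomes, fell in marrow by 1.02, 1.04, 0.79 and 0.80 on the log2 scale. Smc2 was the member of the role with the smallest fall, from 251, 246, 245, 275 and 211 CPM to 101.3, 152, 209, 126 and 122 CPM. In kidney the 4 differed in level and in change. Ncaph rose from 0.599 ± 0.211 to 1.57 ± 0.298 CPM (log2FC 1.37 ± 0.28 SE, FDR = 0.00130) and Smc2 from 2.22 ± 0.680 to 3.66 ± 0.998 CPM (FDR = 0.0249, above 0.05 when any of 5 libraries was left out). Smc4 stood at 14.0 ± 2.28 CPM with vehicle and 12.3 ± 1.24 CPM with oxaliplatin (log2FC -0.19 ± 0.11 SE, FDR = 0.222).

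Levels of the list differed widely between the tissues before treatment. Set per kilobase of exon, the 48 genes had a median of 24.96 CPM per kb in vehicle marrow, from 5.40 for Cdc25c to 314 for Mki67, and a median of 0.194 CPM per kb in vehicle kidney, from 0.00351 for Cdc25c to 11.5 for Pttg1. In the 20-library fit 47 of 48 were called higher in vehicle marrow than in vehicle kidney, against 38.3% of all genes, and the median log2 difference was 7.07. Pttg1 was the exception, lower in marrow by a log2 difference of -1.25 ± 0.12 SE. The next smallest differences were those of Spc25 (1.74), Nek2 (3.75), Mad2l1 (4.27) and Smc4 (4.35), and all 5 were among the genes without a kidney call. Tissue and RNA extraction cannot be told apart in this contrast.

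Within a marrow group the 48 genes moved together from library to library. Vehicle mouse 5 had the lowest value of its group for 48 of 48 genes and vehicle mouse 4 the highest for 31. In the oxaliplatin group mouse 3 was highest for 44 genes and mouse 1 lowest for 45. The summed level of the list was 11014, 11144, 11075, 11649 and 9288 CPM in vehicle marrow and 4117, 5198, 6569, 4761 and 4866 CPM in oxaliplatin marrow. Kidney libraries had a weaker order. Oxaliplatin mouse 2 was highest for 24 genes and oxaliplatin mouse 1 lowest for 19, and vehicle mouse 1 was lowest for 18. The kidney sums ran from 93.5 to 106 CPM with vehicle and from 124 to 161 CPM with oxaliplatin. The genes are therefore not independent observations of the treatment, and a count of called genes rests on the same 10 libraries.

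**Figure D4:**
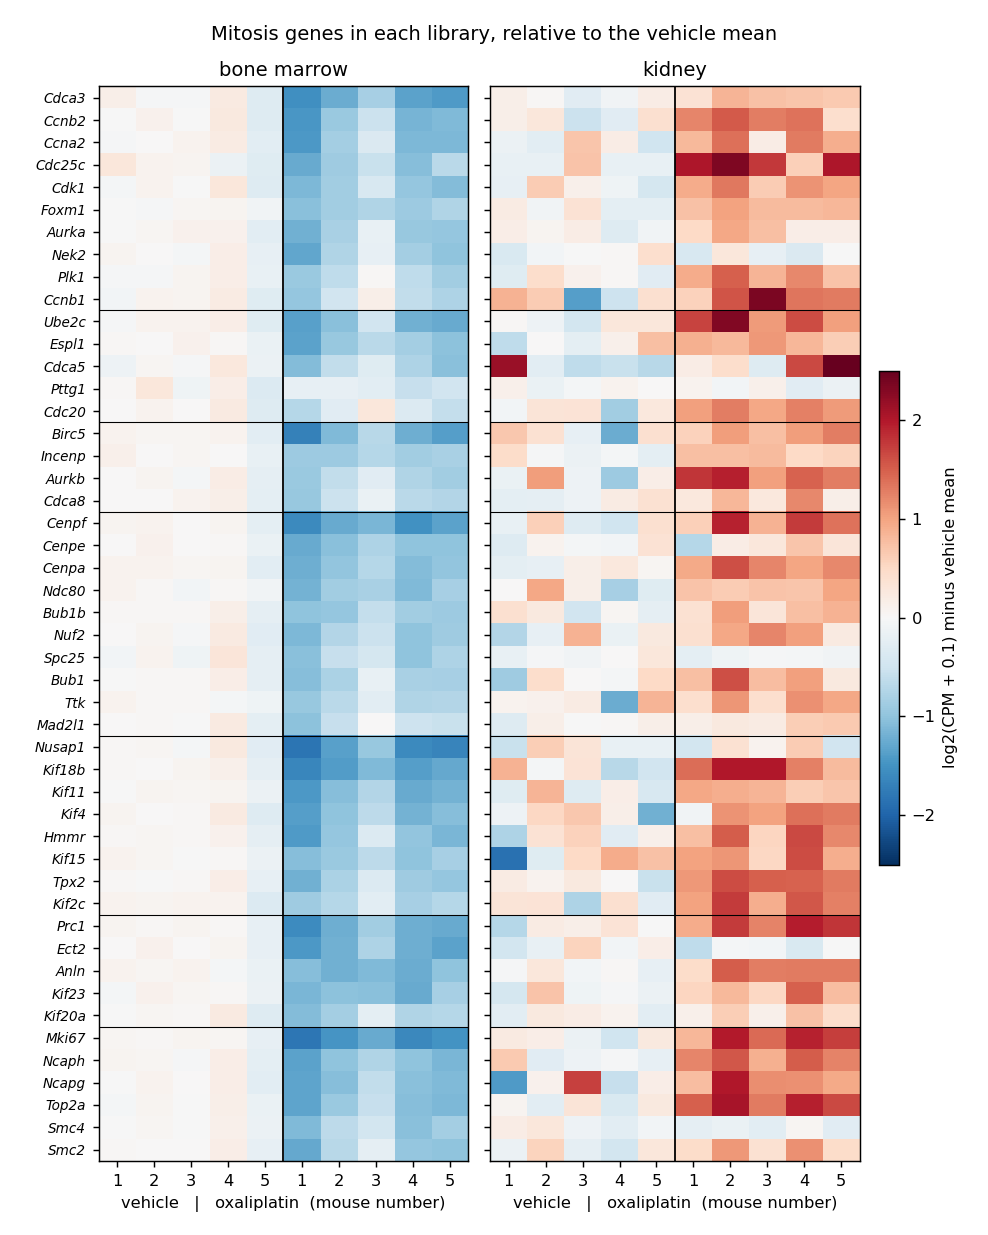
log2(CPM + 0.1) of each of the 48 genes (rows, ordered by role and marrow change) in each library (columns) minus the gene's mean over the 5 vehicle libraries of that tissue, with blue for lower, red for higher and colours saturating at 2.5 either way. Oxaliplatin mouse 3 is the palest and mouse 1 the darkest of the marrow columns, and Nek2, Pttg1, Spc25, Ect2 and Smc4 stay pale in kidney.

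Other genes of the same machinery, set down as lists by function, were less uniform than the members. Of 35 further centromere, kinetochore and checkpoint genes 25 were called lower in marrow, where 11.8% of all genes were, with a median log2FC of -0.71, and of 37 further spindle, centrosome and cytokinesis genes 21, with a median of -0.60. Kntc1 (log2FC -1.28) and Knl1 (-1.09) were among those with the smallest p of the first and Aspm (-1.47), Cit (-1.12) and Kifc1 (-1.17) had the smallest of the other. Of 13 further condensin and cohesin genes 6 were called lower, Ncapd3, Ncapg2 and Ncapd2 with the smallest p. Among 17 subunits and partners of the anaphase-promoting complex only Fzr1 (log2FC -1.44 ± 0.12 SE), its G1 activator, Fbxo5 (-1.24 ± 0.16 SE), its inhibitor, and Ube2s (-0.73 ± 0.13 SE), which extends ubiquitin chains, were called, all lower, a share not far from that of all genes. Ube2s was not called with library size alone as the scaling. Of 12 genes of the DREAM and MuvB complexes, which act on CHR promoters, 5 were called lower, led by Tfdp2 (log2FC -2.58 ± 0.11 SE). Of 24 DNA replication genes of S phase 19 were called lower, with a median of -0.84.

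In kidney these lists gave fewer calls. Higher calls were made for 4 of 28 kinetochore genes tested, 10 of 33 spindle genes, 1 of 13 condensin and cohesin genes, 0 of 17 genes of the anaphase-promoting complex, 0 of 12 of the DREAM and MuvB list and 4 of 24 replication genes, against 7.68% of all genes. Kif20b was the single gene of the 6 lists called lower there (log2FC -1.59 ± 0.26 SE). The 3 spindle genes with the smallest p all rose, namely Psrc1 (log2FC 4.00 ± 0.28 SE), Gtse1 (2.61 ± 0.20 SE) and Ckap2 (2.49 ± 0.35 SE). In the replication list Rrm2 (log2FC 1.34 ± 0.14 SE), Uhrf1 (1.33 ± 0.17 SE) and Mcm3 (0.95 ± 0.14 SE) had the smallest p.

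Regulators of mitotic entry outside the list included genes called in either direction. Cdkn1a, which encodes the cyclin-dependent kinase inhibitor p21, rose from 6.56 ± 0.405 to 136 ± 31.8 CPM in marrow (log2FC 4.37 ± 0.18 SE, FDR = 1.30e-08) and from 3.04 ± 1.15 to 115 ± 31.8 CPM in kidney (log2FC 5.25 ± 0.31 SE, FDR = 7.20e-06). The rise was thus present in both tissues, and its difference between them was not called (-0.82 ± 0.32 SE, FDR = 0.0564). Cdc25b, a phosphatase that activates Cdk1, fell in marrow (log2FC -2.001 ± 0.18 SE) and rose in kidney (0.96 ± 0.11 SE). Of the 15 genes of this list 7 were called lower and 2 higher in marrow, where 11.8% and 11.6% of all genes were. In kidney 1 was called lower and 4 higher, against 3.81% and 7.68%. The 2 higher calls in marrow and the 1 lower call in kidney were thus not far from the shares of all genes.

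Markers of marrow cell types changed beside the mitosis genes. Early erythroid markers, which cover the dividing red cell precursors, were called lower in 8 of 10 genes (median log2FC -1.06, summed level 2575 to 3397 CPM with vehicle and 1108 to 2210 CPM with oxaliplatin), late erythroid markers in 12 of 12 (median -2.69, 33340 to 56960 and 4481 to 11053 CPM) and pro-B and pre-B markers in 9 of 12 (median -2.23, 378 to 675 and 102 to 182 CPM). Granulocyte precursor markers gave 0 calls in 8 genes (median 0.02, 3147 to 3699 and 2796 to 4411 CPM) and adipocyte markers were called higher in 8 of 8 (median 4.85, 179 to 276 and 954 to 3526 CPM). Mature neutrophil markers gave 0 calls in 8 genes (median -0.16, 8707 to 10474 and 3994 to 14031 CPM). Stem and progenitor markers were called higher in 3 of 8 and lower in 0 (median 0.22, 215 to 274 and 228 to 285 CPM). Of all genes tested in marrow 11.8% were called lower and 11.6% higher. The summed level of the 48 mitosis genes was 3.35 to 3.90 times that of the early erythroid markers in the vehicle libraries and 2.97 to 4.17 times in the oxaliplatin libraries, so the ratio overlapped between the groups. Set against the granulocyte precursor markers it was 2.67 to 3.50 with vehicle and 1.35 to 1.86 with oxaliplatin, without overlap. Against the pro-B and pre-B markers it went the other way, from 16.5 to 29.3 with vehicle to 26.1 to 48.2 with oxaliplatin, with overlap. Against the replication genes it was 2.18 to 2.38 and 1.63 to 2.38, also with overlap. These 4 ratios were formed after the values had been seen. The part of the change in cell make-up in the fall of the mitosis genes was not tested.

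**Figure D5:**
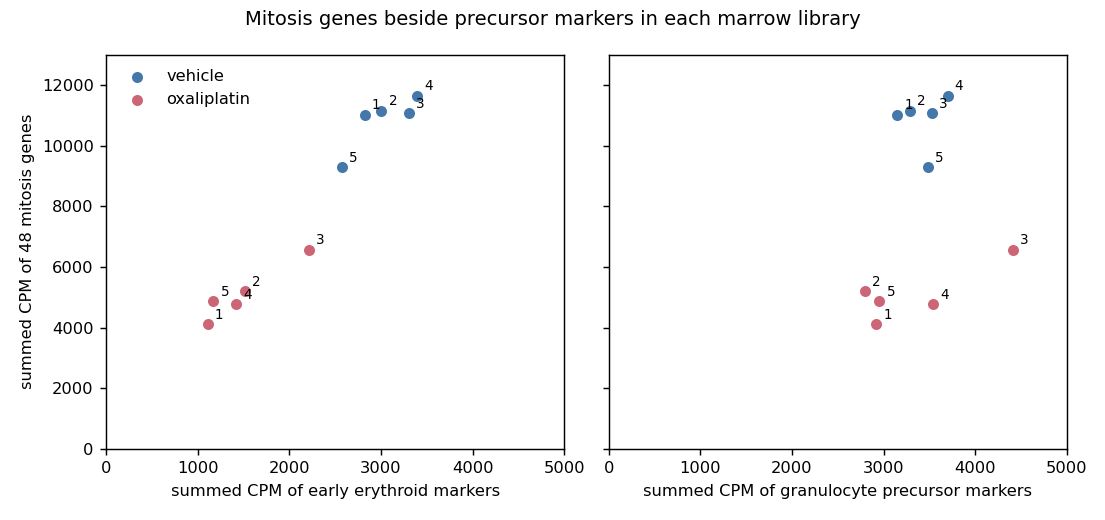
Summed CPM of the 48 mitosis genes (y axis) against the summed CPM of 10 early erythroid markers (left) or 8 granulocyte precursor markers (right) in each marrow library (x axis), with mouse numbers beside the points. Both panels share the y axis, on which every oxaliplatin library lies below every vehicle library. On the left the libraries of both groups lie along a rising band, from 1108 and 4117 CPM to 3397 and 11649 CPM. On the right the marker levels overlap, at 2796 to 4411 CPM with oxaliplatin and 3147 to 3699 CPM with vehicle.

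In kidney the marker lists moved in several directions. The summed level of mature neutrophil markers was 2.02 to 2.74 CPM with vehicle and 3.57 to 5.58 CPM with oxaliplatin, that of pro-B and pre-B markers 9.37 to 11.03 and 12.2 to 14.9 CPM, and that of injury markers 495 to 564 and 704 to 791 CPM. All 3 sums, like that of the mitosis genes, lay higher with oxaliplatin without overlap, which was true of 9.69% of single genes tested. Only 2 of 8 neutrophil markers and 3 of 12 pro-B and pre-B markers had enough counts to be tested. In each of these lists 1 gene was called higher, where 7.68% of all genes were, and 1 pro-B or pre-B gene had no count in kidney. Adipocyte markers were called higher in 5 and lower in 1 of 7 genes tested, although their sum was 301 to 534 CPM with vehicle and 230 to 368 CPM with oxaliplatin. Of all genes tested in kidney 3.81% were called lower. Leukocyte markers were called lower in 2 of 6 genes tested, and their summed level was 89.5 to 112 CPM with vehicle and 47.6 to 63.6 CPM with oxaliplatin, while the granulocyte precursor markers stayed at 0.211 to 0.725 CPM in all 10 libraries, with 2 of the 8 at 0 throughout. Hemoglobin genes, a sign of blood in the tissue, gave 0 calls in 4 genes tested, with sums of 250 to 417 CPM with vehicle and 44.7, 689, 219, 671 and 43.4 CPM with oxaliplatin. Oxaliplatin libraries 2 and 4 stood apart there, and their mitosis sums of 161 and 154 CPM were the highest of the group, against 124, 135 and 140 CPM. The injury markers Spp1 (log2FC 0.93 ± 0.08 SE) and Lcn2 (log2FC 2.06 ± 0.29 SE) were called higher among 5 tested. The other 3 were not called, the lowest at a log2FC of -0.28, and the median of the 5 was 0.11. The part of these cell types in the rise of the mitosis genes was not tested. Which kidney cells carried the mitosis RNAs cannot be read from bulk tissue.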

How the data were processed

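The authors deposited raw counts of reads per gene for 20 mouse libraries, in a table for each tissue, with no normalization or filter. The study's methods state that STAR aligned the reads to Ensembl release 101, naming no genome build, and that Partek Flow counted those with a unique, unambiguous place. The labels name STAR, featureCounts and Salmon, describe ribosomal RNA removal and random priming where the methods name a SMARTer kit, and give no strand setting. Of 55774 lines per table, 287 that repeated an identifier and its counts were dropped, as was 1 that lacked a value. Between 69.2% and 75.1% of counts from 1 to 10 were even, for a reason that was not tested. Counts divided by 2 were run as an alternative chosen after this was seen, and so was a fit without oxaliplatin kidney libraries 2 and 4. A floor of 3 counts corresponded to 0.0668 to 0.0975 CPM in marrow and 0.0900 to 0.130 CPM in kidney, for counting error only.

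Genes were filtered with filterByExpr (minimum count 10), scaled by TMM and tested with edgeR 4.0.16 (robust quasi-likelihood, R 4.3.3), within a tissue or over all 20 libraries for the tissue by treatment term. DESeq2 1.42.0, other scalings, filters and thresholds, a Y-linked covariate, a replicate block and each library left out were alternatives. The steps were tested on simulated data. Positions are from GENCODE M21, on GRCm38. The members and lists were chosen with earlier results of these data known. Values per library are given for Cdk1, Ccnb1, Foxm1 and Top2a, for the members with the most and the least negative marrow change of each role, and for the 5 smallest p in kidney, beside members and context genes taken up for their calls or for having none. The values of 1 context gene are not reported here. P-values set the difference between groups against the spread between these libraries, which is moderated across genes. Figures were drawn with matplotlib 3.10.9.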

Additional observations from a re-analysis of the deposited data

Results flagged for a closer look

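A library stood apart from the other 4 of its group, by the gap to its nearest neighbour over the group's range, in 9 of 80 checks of 19 genes and the summed list in 4 groups; about 1 in 20 such checks is flagged by chance, and the genes are not independent. All 9 lay in marrow. Vehicle mouse 5 was low for Birc5 (142 CPM), Kif2c (53.7), Prc1 (142), Mki67 (2719), Cenpa (151) and the summed list (9288 CPM). Oxaliplatin mouse 3 was high for Cdk1 (99.8 CPM), Ube2c (155) and Kif2c (56.1). In the same libraries the early erythroid markers were also lowest of the vehicle group (2575 CPM) and highest of the oxaliplatin group (2210 CPM), and the part of cell make-up in this was not tested.

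The treatment effect differed between marrow and kidney for 43 of 48 genes in edgeR's interaction test over 20 libraries. Among genes described above with values or counts in each library, the marrow change minus the kidney change on the log2 scale was -1.86 for Cdk1, -2.07 for Ccnb1, -4.85 for Cdc25c, -1.65 for Foxm1, -1.88 for Cdca3, -2.73 for Ube2c, -1.34 for Cdc20, -2.005 for Birc5, -1.15 for Cdca8, -2.72 for Cenpf, -0.83 for Mad2l1 and -2.21 for Cenpa. It was -1.42 for Nusap1, -2.16 for Kif2c, -2.25 for Tpx2, -2.84 for Prc1, -1.08 for Kif20a, -2.66 for Top2a, -3.10 for Mki67 and -1.43 for Smc2. It was not called for Pttg1 (-0.24) and Cdca5 (-1.78). The values of Ccnb1 and Cdc25c rest on few kidney counts, and that of Cdc25c ran from -7.40 to -4.57 with each library left out. All 43 calls held under every other scaling, tool and covariate that tested the gene and with each library left out, and 40 held without oxaliplatin kidney libraries 2 and 4, the exceptions being Cdca8, Bub1 and Ttk.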

How the results depend on the processing

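The marrow count of 43 genes called lower was 37 with library size alone, 44 with the replicate block and 45 with no fold-change threshold, and the kidney count of 26 called higher was 20 of the 31 genes with at least 10 counts in every library, 23 with the Y-linked covariate and 30 with library size alone. Counts divided by 2 gave 43 in marrow and 26 of 38 tested in kidney. With a fold change beyond 2 both counts were 17. Leaving out each library gave 41 to 46 in marrow, 22 to 29 in kidney and 43 to 46 for the difference between tissues, and medians of -0.99 to -0.83 in marrow and 0.86 to 1.08 in kidney. Library size alone moved the median of all genes to 0.11 in marrow and 0.16 in kidney, and the calls in marrow to 1984 lower and 3431 higher from 2632 and 2589. In kidney it moved them to 2245 higher, 11.6% of all genes, and 470 lower from 1481 and 735. Without oxaliplatin kidney libraries 2 and 4, an alternative chosen after the data were seen, 19 genes were called in kidney and 40 for the difference between tissues. Of the calls, 37 of 43 in marrow, 18 of 26 in kidney and 40 of 43 for the difference between tissues held under every alternative that kept the 1.5-fold threshold and tested the gene. The median log2 difference of vehicle marrow over vehicle kidney was 7.07, and 7.48 with library size alone, 6.72 with at least 10 counts in every library, 6.82 with the Y-linked covariate and 6.99 to 7.22 with each library left out. Uncalled kidney values changed sign for Pttg1 (0.078 with library size alone, 0.026 with the Y-linked covariate, 0.031 without the 2 libraries, -0.099 to 0.0083 with each library left out), Spc25 (0.022 with library size alone) and Nusap1 (-0.15 with the Y-linked covariate, -0.32 without the 2 libraries, -0.13 to 0.23 with each library left out). The causes were not tested. Same-numbered libraries of the 2 treatments did not deviate together (r from -0.12 to 0.23 in marrow and from -0.15 to 0.08 in kidney, 1 of 5 libraries closest to its own number in each), so the numbers were not taken as pairs. Between same-numbered marrow and kidney libraries r ran from -0.09 to 0.05 with vehicle and from -0.08 to 0.21 with oxaliplatin. The main test of the difference between tissues treated all 20 libraries as independent. Within a tissue the replicate block joined same-numbered libraries of the 2 treatments. For the contrasts between tissues it joined same-numbered marrow and kidney libraries of the same treatment. With the replicate block 44 genes were called in marrow, 25 in kidney and 44 for the difference between tissues. The medians were then -0.89, 0.97 and, between vehicle tissues, 7.08. Depth limits the kidney values, where 5 genes were not tested.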
